A study of Mus musculus with 4 samples.

Results

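The TNF and TNF receptor superfamily genes were followed through invariant natural killer T (iNKT) cells of CD4-Vα14Tg and WT mice. Members were the genes whose own probe set carries a symbol that begins with Tnfrsf (receptors) or Tnfsf (ligands). There were 29 such genes among 22180 named on the array, 20 receptors and 9 ligands, and each had 1 probe set. Tnfsf12 and Tnfsf13 share a probe set with each other and are not analysed here. A second probe set of Tnfrsf18 that also carries another gene's symbol was left out.

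These T cells share a nearly fixed T cell receptor (TCR) that sees lipids on CD1d. In CD4-Vα14Tg mice the CD4 promoter drives a transgene of their Vα14 TCR chain, and the comparison mice are labelled WT controls, so the transgene is expressed where that promoter is active. RNA of samples labelled iNKT cells was hybridised to 4 whole-transcript arrays, 2 per genotype. The comparison belongs to a study of how TCR density in early iNKT precursors bears on selection and subset choice. The extraction protocol speaks of frozen tissue, which does not match that label, and the purity of the cells is not stated. The labels give no organ, sorting gate, age or sex, and they do not say whether the 2 arrays of a genotype came from separate mice, so the p-values measure the spread between arrays, which may be technical.

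Ligands of this superfamily are mostly trimeric proteins of the cell surface, and they act by clustering their receptors on the same or a neighbouring cell. Receptors without a death domain, such as GITR, OX40, 4-1BB and TNFR2, bind TRAF adaptors and pass on costimulation through NF-κB. Receptors with a death domain can instead recruit FADD and caspase-8 and start apoptosis. Activated T cells and iNKT cells use both arms, TRAIL and Fas ligand for killing and GITR, OX40 and 4-1BB for costimulation.

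The sequences just upstream of 3 receptor genes are shown, those of Tnfrsf21 and Tnfrsf18 because these were the 2 members that passed the test, and that of Tnfrsf9 because it held a κB motif, the kind of site that NF-κB binds. Each is the 250 bases before a start site in RefSeq (assembly GRCm38.p6), 5′ to 3′ on the gene's own strand, with κB motifs in capitals. They lie at chr17:43016305-43016554, plus strand (Tnfrsf21), chr4:156026072-156026321, plus strand (Tnfrsf18) and chr4:150927749-150927998, plus strand (Tnfrsf9, the downstream of its 2 listed starts).
Tnfrsf21: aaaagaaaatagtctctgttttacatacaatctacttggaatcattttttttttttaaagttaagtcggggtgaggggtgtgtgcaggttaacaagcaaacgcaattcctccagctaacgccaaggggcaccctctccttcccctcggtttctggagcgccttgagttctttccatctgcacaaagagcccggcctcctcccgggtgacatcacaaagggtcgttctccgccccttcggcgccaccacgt
Tnfrsf18: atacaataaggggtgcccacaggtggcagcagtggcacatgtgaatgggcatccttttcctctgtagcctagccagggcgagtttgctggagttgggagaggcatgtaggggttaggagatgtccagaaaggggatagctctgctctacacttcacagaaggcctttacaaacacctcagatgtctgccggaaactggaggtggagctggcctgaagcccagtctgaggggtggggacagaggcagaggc
Tnfrsf9: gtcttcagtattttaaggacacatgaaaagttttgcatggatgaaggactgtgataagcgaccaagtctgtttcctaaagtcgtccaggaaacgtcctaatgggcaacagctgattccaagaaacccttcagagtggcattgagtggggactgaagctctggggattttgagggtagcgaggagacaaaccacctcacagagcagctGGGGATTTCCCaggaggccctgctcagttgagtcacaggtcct

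The Tnfrsf9 motif begins 43 bases before the start, in the run GGGGATTTCCC. The window of the upstream Tnfrsf9 start held none, and neither did those of Tnfrsf21 and Tnfrsf18. Upstream windows were listed for 23 of the 29 members, 27 windows in all, and were not used here for Tnfrsf10b, Tnfrsf11b, Tnfrsf22, Tnfrsf26, Tnfsf4 and Tnfsf9. On either strand, a κB motif stood in 3 of the 27 windows (11.1%), those of Tnfrsf8, Tnfrsf9 and Tnfrsf25, against 7.25% of all 32851 windows in the table. The RUNX core TGTGGT stood in 2 of the 27 (Tnfrsf13c and Tnfrsf25) against 4614 of all windows (14%). The T-box motif AGGTGTGA stood in 0 of the 27 against 1.12% of all. Overlapping matches were allowed and a window was counted 1 time per motif. These matches describe letters in the windows and no binding was measured.

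Signals are log2 values, and signals of different probe sets are not comparable as amounts of RNA. A gene was tested when it reached the 40th percentile of named probe sets, at 4.65 to 4.69, on at least 2 of the 4 arrays. Of the 29 members, 23 passed that filter and 6 did not. All 23 reached that level on all 4 arrays, so none passed through 1 genotype alone. The 6 dim genes were Tnfrsf11a (RANK), Tnfrsf11b (osteoprotegerin), Tnfrsf17 (BCMA) and the ligand genes Tnfsf4 (OX40 ligand), Tnfsf13b (BAFF) and Tnfsf18 (GITR ligand). Tnfsf18 read 2.88 to 3.35, and Tnfrsf11a was the only one of the 6 above that level on any array, with 4.95 on WT replicate 1.

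**Figure D1:**
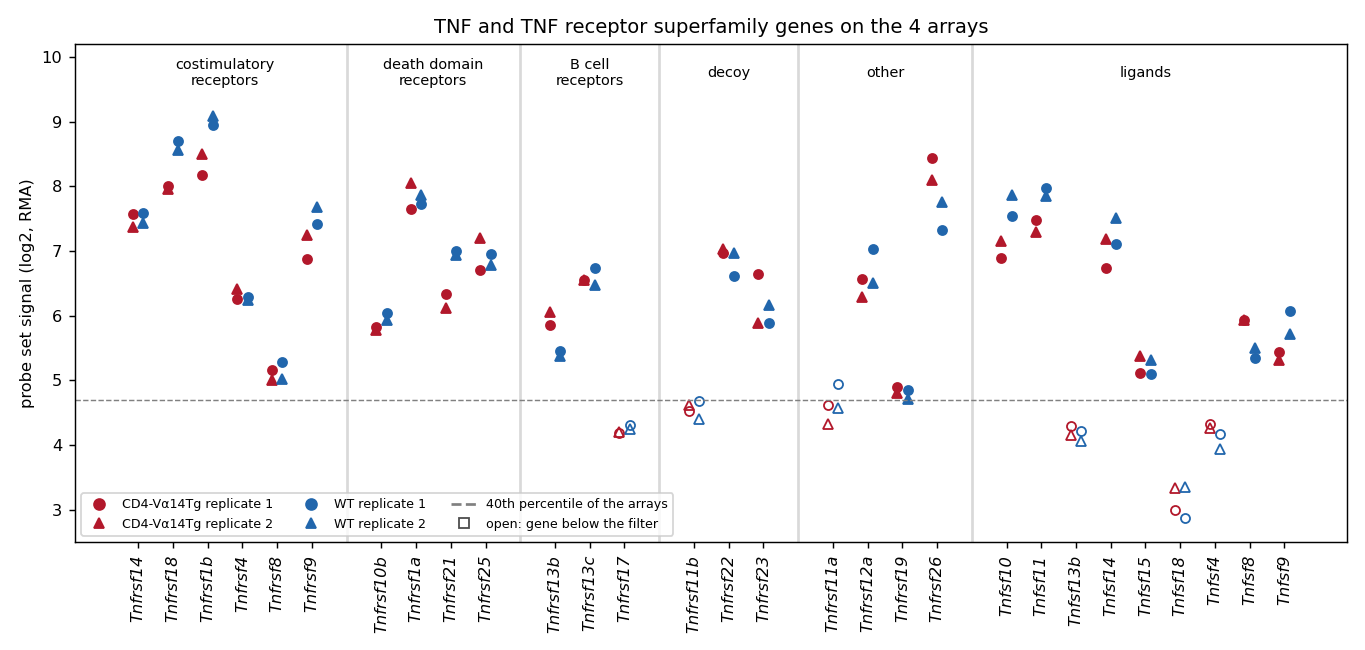
Signal of each of the 29 members on each array (log2, vertical axis), grouped by role, with CD4-Vα14Tg in red, WT in blue, circles for replicate 1, triangles for replicate 2 and open symbols for genes below the filter. The red points of Tnfrsf18, Tnfrsf1b, Tnfrsf21, Tnfrsf9, Tnfsf10 and Tnfsf11 lie below the blue ones, as do those of Tnfrsf10b and Tnfsf9, and the red points of Tnfrsf26, Tnfrsf13b, Tnfrsf22 and Tnfsf8 lie above; the dashed line is the 40th percentile.

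In CD4-Vα14Tg cells, Tnfrsf21 (DR6) and Tnfrsf18 (GITR) fell, by 1.67-fold and 1.57-fold, and no member rose past the test. Of the 23 tested members, 2 were called lower by limma (8.70%, against 1.34% of all genes tested) and 0 higher (against 0.610%), at an adjusted p under 0.05 over the 13602 genes tested. At an unadjusted p under 0.05, 7 members were lower (30.4%, against 7.04% of all genes) and 3 were higher (13.0%, against 4.62%). The groups of arrays did not overlap for 8 members that were lower (34.8%, against 23.4%) and 4 that were higher (17.4%, against 15.7%). The median log2 difference was -0.05 over the 23, -0.04 over all 29 and -0.02 over all genes tested. With 1 array left out, where the lone array of a genotype is assumed to vary like the other group, neither call passed in any of the 4 fits, and calls over all genes numbered 166 to 221 against 265. The log2 differences stayed at -0.84 to -0.63 for Tnfrsf21 and at -0.72 to -0.58 for Tnfrsf18.

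**Figure D2:**
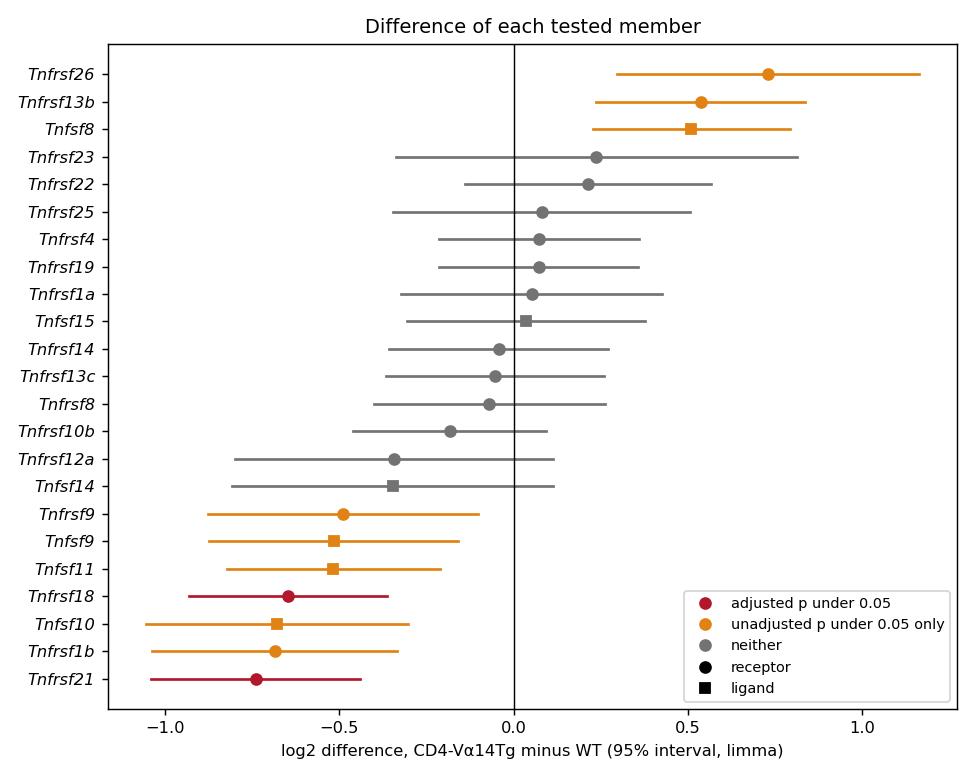
Log2 difference of each tested member, CD4-Vα14Tg minus WT, with its 95% interval from limma (circles receptors, squares ligands). Red marks the 2 genes with an adjusted p under 0.05, Tnfrsf21 at -0.74 and Tnfrsf18 at -0.65, orange the 8 others with an unadjusted p under 0.05, and grey the remaining 13.

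Tnfrsf18 encodes GITR, a costimulatory receptor that is high on regulatory T cells and rises on activated T cells. It read 8.01 and 7.96 on the CD4-Vα14Tg arrays and 8.70 and 8.56 on the WT arrays. Both CD4-Vα14Tg values lay below both WT values by more than the gap within either group. The means were 7.98 ± 0.04 and 8.63 ± 0.10 (SD, n = 2 arrays each), a log2 difference of -0.65 (95% interval -0.93 to -0.36, limma adjusted p = 0.04996). The call was at the edge: with 1 array left out the difference was -0.72 to -0.58 with a limma adjusted p of 0.117 to 0.189, and the adjusted p was 0.0158 to 0.189 over all 11 alternatives, 4 of which kept the call. The adjusted p was 0.0652 with no filter, 0.0627 after a further quantile normalization and 0.0679 with the arrays set to 1 median. Of 5 regulatory T cell genes on a marker list, limma called 0. Foxp3, their defining factor, stood near the filter at 4.71 to 5.12 on the 4 arrays, with a log2 difference of -0.03. The others had -0.36 (Ikzf2), 0.44 (Ikzf4), 0.19 (Il2ra) and 0.04 (Ctla4). At an unadjusted p under 0.05, 1 of the 5 was lower (Ikzf2, 20%, against 7.04% of all genes) and 1 higher (Ikzf4, 20%, against 4.62%). The summed log2 signal of the 5 genes was 32.5 to 33.1 in CD4-Vα14Tg and 32.3 to 32.8 in WT. Their part in the Tnfrsf18 difference was not tested.

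Tnfrsf1b encodes TNFR2, the TNF receptor without a death domain, which costimulates T cells. Its signals were 8.17 and 8.50 in CD4-Vα14Tg and 8.95 and 9.09 in WT. The groups did not overlap, though the CD4-Vα14Tg arrays had an SD of 0.24. The log2 difference of -0.69 (95% interval -1.04 to -0.33) did not pass (limma adjusted p = 0.0811) and was -0.85 to -0.52 with 1 array left out.

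Tnfrsf9 encodes 4-1BB, which T cells put on their surface after TCR stimulation. It read 6.88 and 7.24 against 7.41 and 7.68. Both groups were spread, and the higher CD4-Vα14Tg array lay just below the lower WT array. The log2 difference was -0.49 (95% interval -0.88 to -0.10, limma adjusted p = 0.270), and it was -0.31 without CD4-Vα14Tg replicate 1 and -0.67 without CD4-Vα14Tg replicate 2.

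The other 3 costimulatory receptors showed small differences whose intervals include 0. Tnfrsf4 (OX40) had a log2 difference of 0.07 (95% interval -0.21 to 0.36) with 6.27 and 6.42 against 6.30 and 6.24. Tnfrsf14 (HVEM, the receptor of LIGHT and BTLA) had -0.04 (-0.36 to 0.27). Tnfrsf8 (CD30) had -0.07 (-0.40 to 0.26) with signals of 5.01 to 5.29, near the filter. Among the 6 costimulatory receptors 1 thus fell (16.7%, against 1.34% of all genes) and 0 rose (against 0.610%), and the median of their log2 differences was -0.28, against -0.02 over all genes tested. Tnfrsf4 and Tnfrsf18 are direct neighbours in the gene order, with 0 coding genes between them, and their differences were 0.07 and -0.65. Tnfrsf1b and Tnfrsf8 are neighbours as well, at -0.69 and -0.07.

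Among the 4 death domain receptors, Tnfrsf21 fell and 3 did not pass. Tnfrsf21 encodes DR6, a death domain receptor that restrains activation and type 2 cytokine production of mouse T helper cells. It read 6.33 and 6.12 in CD4-Vα14Tg and 6.99 and 6.94 in WT. Every CD4-Vα14Tg value was lower than every WT value, and the WT arrays were close together. The means were 6.23 ± 0.15 and 6.96 ± 0.04 (SD, n = 2 arrays each), a log2 difference of -0.74 (95% interval -1.04 to -0.44, limma adjusted p = 0.0377). With 1 array left out the difference was -0.84 to -0.63 with a limma adjusted p of 0.0633 to 0.151, and the adjusted p was 0.00936 to 0.151 over all 11 alternatives, 7 of which kept the call.

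Tnfrsf1a (TNFR1), the receptor through which TNF can signal death, read 7.65 and 8.05 against 7.73 and 7.86. The groups overlapped, and the log2 difference of 0.05 (95% interval -0.32 to 0.43) ran from -0.15 to 0.25 with 1 array left out. Tnfrsf25 (DR3, the TL1A receptor) had a log2 difference of 0.08 (-0.34 to 0.51) and Tnfrsf10b (the mouse TRAIL receptor) had -0.18 (-0.46 to 0.09). The Tnfrsf10b groups did not overlap, at 5.83 and 5.79 against 6.04 and 5.94, but the interval includes 0.

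The receptors that B cells use for BAFF and APRIL gave no call. Tnfrsf13b encodes TACI. It read 5.85 and 6.05 in CD4-Vα14Tg and 5.46 and 5.37 in WT. Both CD4-Vα14Tg values were above both WT values, with a log2 difference of 0.54 (95% interval 0.24 to 0.84, limma adjusted p = 0.110, 0.44 to 0.64 with 1 array left out). Tnfrsf13c (BAFF receptor) had -0.05 (-0.37 to 0.26), and Tnfrsf17 lay below the filter at 4.19 to 4.30. Beside these, 5 of 7 named B and plasma cell markers were below the filter, among them Cd79a, Ms4a1 and Pax5. Cd79b, a B cell receptor subunit, read 5.50 and 5.43 against 5.05 and 4.94, a log2 difference of 0.48 (limma adjusted p = 0.124). Sdc1, the other tested marker, went the other way at -0.17, with overlapping groups. The summed log2 signal of the 7 markers was 30.4 to 31.1 in CD4-Vα14Tg and 29.4 to 31.2 in WT. Its part in the Tnfrsf13b difference was not tested.

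A trio of mouse receptor genes stands side by side with 0 coding genes between them: Tnfrsf26, Tnfrsf22 and Tnfrsf23, of which Tnfrsf22 and Tnfrsf23 encode TRAIL receptors without a death domain. Tnfrsf26, a TNF receptor homologue of the same cluster, read 8.44 and 8.10 in CD4-Vα14Tg and 7.33 and 7.75 in WT. The groups did not overlap but each was spread, with SDs of 0.24 and 0.30. Its log2 difference of 0.73 (95% interval 0.30 to 1.16), 1.66-fold, did not pass (limma adjusted p = 0.128) and moved between 0.52, when WT replicate 1 was left out, and 0.94, when WT replicate 2 was. Tnfrsf22 and Tnfrsf23 had log2 differences of 0.21 (-0.14 to 0.57) and 0.24 (-0.34 to 0.81), so all 3 genes of the cluster had a positive difference and none passed. Tnfrsf23 read 6.65 and 5.88 against 5.89 and 6.17, and its difference ran from -0.15 to 0.62 with 1 array left out, while that of Tnfrsf22 ran from 0.03 to 0.40. The 3 genes are related in sequence, and probes that bind more than 1 of them were not looked for.

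The remaining receptors gave no call. Tnfrsf12a (FN14, the TWEAK receptor) had a log2 difference of -0.34 (-0.80 to 0.11), with 6.57 and 6.28 against 7.03 and 6.51, and ran from -0.60 to -0.08 with 1 array left out. Tnfrsf19 (TROY) read 4.71 to 4.90, just above the filter, with a difference of 0.07. The dim Tnfrsf11a and Tnfrsf11b had differences of -0.29 and 0.03.

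No ligand gene passed the test: 0 of 6 tested were called by limma in either direction, while 3 were lower (50%, against 7.04% of all genes) and 1 higher (16.7%, against 4.62%) at an unadjusted p under 0.05. The median log2 difference was -0.43 over these 6 and 0.04 over all 9 ligand genes, against -0.02 over all genes tested. Tnfsf10 encodes TRAIL, which kills through death receptors. It read 6.90 and 7.16 in CD4-Vα14Tg and 7.54 and 7.87 in WT. Both CD4-Vα14Tg arrays were lower than both WT arrays. The log2 difference was -0.68 (95% interval -1.05 to -0.30, limma adjusted p = 0.108), or 1.60-fold, and -0.84 to -0.51 with 1 array left out.

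Tnfsf11 encodes RANKL, which drives osteoclasts and, in the thymus, medullary epithelium. Its signals were 7.49 and 7.29 against 7.97 and 7.84, again without overlap. The log2 difference was -0.52 (95% interval -0.82 to -0.21, limma adjusted p = 0.126).

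Tnfsf9 encodes 4-1BB ligand. It read 5.44 and 5.31 against 6.07 and 5.71, with a log2 difference of -0.52 (95% interval -0.87 to -0.16, limma adjusted p = 0.197). The WT arrays were the wider pair, and the difference moved to -0.34 when WT replicate 1 was left out and to -0.70 when WT replicate 2 was.

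Tnfsf8 encodes CD30 ligand and was the one tested ligand with a higher signal at an unadjusted p under 0.05. It read 5.94 and 5.94 in CD4-Vα14Tg and 5.35 and 5.50 in WT. The groups did not overlap and the CD4-Vα14Tg arrays were nearly equal. The log2 difference was 0.51 (95% interval 0.23 to 0.79, limma adjusted p = 0.108). Its neighbour Tnfsf15 (TL1A) had 0.04 (-0.31 to 0.38). Tnfsf14 (LIGHT) had -0.35 (-0.81 to 0.11) with overlapping groups and ran from -0.57 to -0.12 with 1 array left out, and the dim Tnfsf4, Tnfsf13b and Tnfsf18 had differences of 0.25, 0.08 and 0.05.

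**Figure D3:**
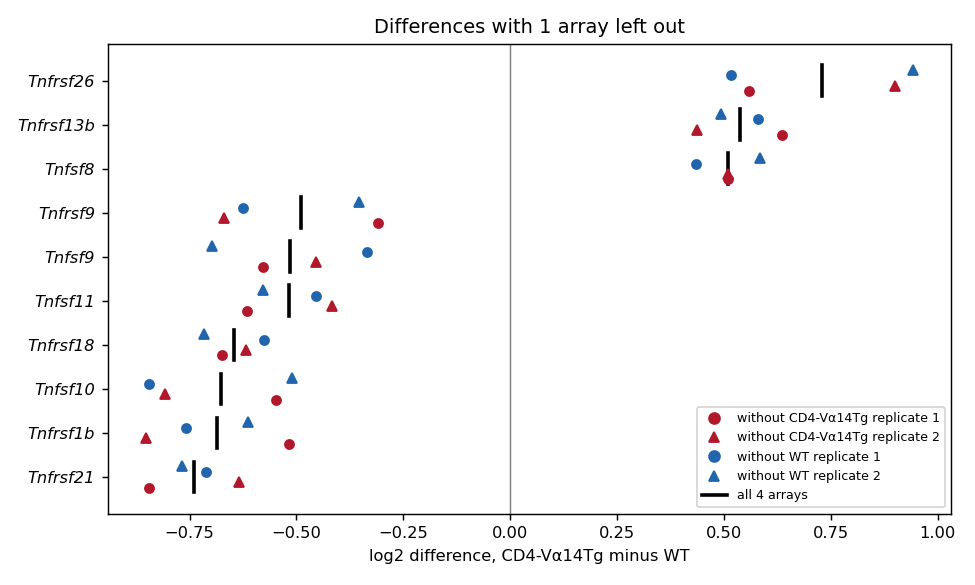
Log2 difference (CD4-Vα14Tg minus WT) of the 10 members with an unadjusted p under 0.05, with all 4 arrays (black bar) and with 1 array left out (symbols). No symbol crosses 0, which could not occur for these genes because their groups of arrays do not overlap. Tnfrsf9 moves from -0.67 to -0.31 and Tnfrsf26 from 0.52 to 0.94.

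With 1 array left out, the sign of the difference held in all 4 fits for 15 of the 23 tested members and changed in at least 1 fit for 8. The 10 members at an unadjusted p under 0.05 were among the 15. Their groups of arrays did not overlap, so leaving out 1 array could not change their sign. The same held for Tnfrsf10b and Tnfrsf22, whose groups did not overlap either. The share of all genes that kept their sign was not counted.

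Receptors were set beside their ligands in 17 pairs, of which 7 had both genes tested. The pair of 4-1BB and its ligand had differences of -0.49 and -0.52. TRAIL and its receptor Tnfrsf10b had -0.68 and -0.18, and HVEM and LIGHT had -0.04 and -0.35. CD30 and its ligand had opposite signs, at -0.07 and 0.51. GITR had -0.65 while its ligand gene Tnfsf18 was below the filter, and RANKL had -0.52 while both of its receptors, Tnfrsf11a and Tnfrsf11b, were below the filter. Tnf, at -1.30, paired with Tnfrsf1b at -0.69 and with Tnfrsf1a at 0.05, and DR3 and TL1A had 0.08 and 0.04. Of the 7 pairs, none had both genes past the test.

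**Figure D4:**
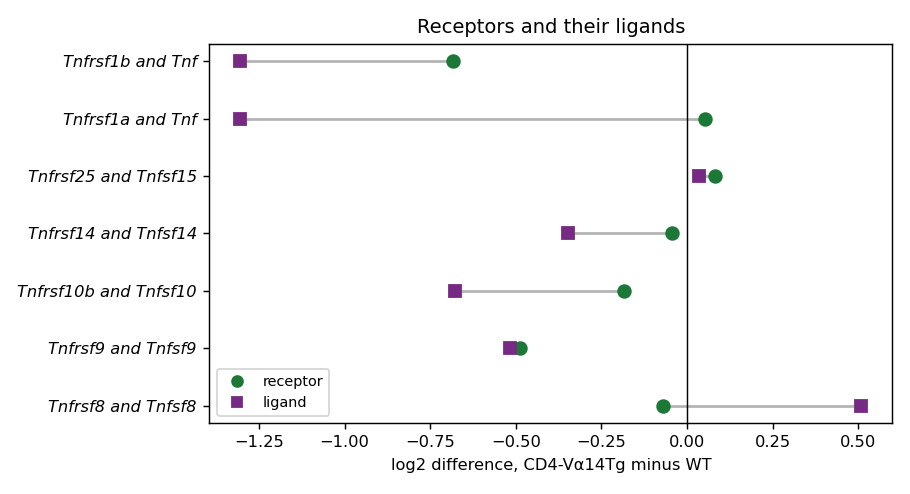
Log2 differences (CD4-Vα14Tg minus WT) of the receptor (green circle) and ligand (purple square) in the 7 pairs with both genes tested. Both members are below 0 in 4 pairs, both above in 1 (Tnfrsf25 and Tnfsf15) and on opposite sides in 2.

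Superfamily genes with other symbols were taken from a list of 15, of which 12 were tested: 1 fell (8.33%, against 1.34% of all genes) and 0 rose (against 0.610%). Differences were negative in 11 of the 12, and the median of the 12 was -0.15 on the log2 scale, against -0.02 over all genes tested. The groups of arrays overlapped for 7 of the 12. They did not overlap for 5 that were lower (41.7%, against 23.4% of all genes) and 0 that were higher (against 15.7%). At an unadjusted p under 0.05, 2 were lower (16.7%, against 7.04% of all genes). Fasl, the gene of Fas ligand, was the one that fell. It read 7.17 and 7.26 in CD4-Vα14Tg and 8.21 and 8.78 in WT. The groups were far apart beside the gap within CD4-Vα14Tg, and WT was the wider group. The fall was 2.43-fold (log2 difference -1.28, 95% interval -1.73 to -0.83, limma adjusted p = 0.0215). The limma adjusted p was 0.0769 without CD4-Vα14Tg replicate 1 and 0.0610 without CD4-Vα14Tg replicate 2, in a range from 0.00181 to 0.0769 over 11 alternatives, of which 9 kept the call.

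Tnf itself read 9.23 and 8.41 against 10.30 and 9.95. The groups did not overlap, but the CD4-Vα14Tg arrays had an SD of 0.58. The log2 difference of -1.30 (95% interval -1.92 to -0.69), 2.47-fold, did not pass (limma adjusted p = 0.0636), and the limma adjusted p was 0.0115 without CD4-Vα14Tg replicate 1 within a range of 0.00158 to 0.176 over the alternatives. Lta and Ltb, the lymphotoxin genes, had -0.15 and -0.28, and the receptor gene Fas had -0.07 (-0.41 to 0.28). Cd40lg, which licenses dendritic cells, had -0.05 (-0.42 to 0.33) and Cd27, the CD70 receptor, had -0.03 (-0.51 to 0.45). With 1 array left out, Fas ran from -0.23 to 0.10, Cd40lg from -0.22 to 0.13 and Cd27 from -0.27 to 0.21.

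Of 46 genes that carry the receptors' signals or process the ligands, 41 were named and tested, and limma called 0 in either direction. At an unadjusted p under 0.05, 7 were lower (17.1%, against 7.04% of all genes) and 0 were higher (against 4.62%), and the median over the 41 was -0.05, against -0.02 over all genes tested. The 7 were the adaptors Traf1 (-0.50) and Traf5 (-0.36), the BH3-only protein gene Bid (-0.35), Rela (-0.32) and the NF-κB inhibitor gene Nfkbia (-0.56), and in ligand processing the convertase gene Furin (-0.51) and Rhbdf2 (-0.31), a partner of the TNF sheddase ADAM17. Their limma adjusted p ran from 0.100 for Furin to 0.410 for Rela. With 1 array left out, Traf1 ran from -0.72 to -0.27 and Rela from -0.44 to -0.21. Nfkbia read 11.65 and 11.03 against 11.93 and 11.87, and its difference was -0.25 without CD4-Vα14Tg replicate 2 and -0.87 without CD4-Vα14Tg replicate 1. The 16 ubiquitin ligases and regulators of the receptor complex, which include Birc2, Birc3, Tnfaip3 and Cyld, had differences of -0.25 to 0.12 with a median of 0.01, and 0 of the 16 had an unadjusted p under 0.05.

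**Figure D5:**
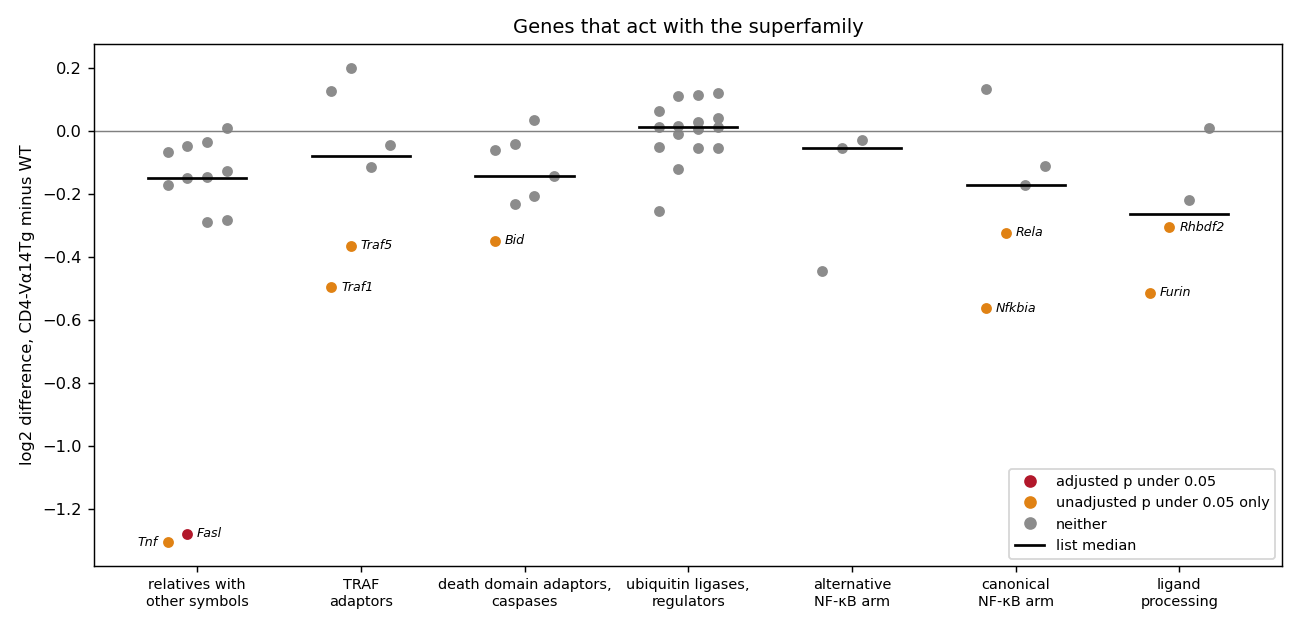
Log2 difference (CD4-Vα14Tg minus WT) of each tested gene in 7 lists of superfamily relatives and signalling partners, with list medians as black bars. Fasl (red) at -1.28 is the one gene past an adjusted p of 0.05, Tnf lies beside it at -1.30, and the other named genes (orange) lie between -0.56 and -0.31.

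Markers of iNKT subsets differed between the same arrays. The marker lists, like the members, were chosen with earlier results of these data known. All 10 NKT1 and NK program genes on the list fell (100%, against 1.34% of all genes). The median of their log2 differences was -1.83, against -0.02 over all genes tested, and -1.93 to -1.65 with 1 array left out. Their summed log2 signal was 81.2 to 82.3 in CD4-Vα14Tg and 100.4 to 100.9 in WT. Of 5 tested NKT17 genes, 3 fell (60%, against 1.34% of all genes). The median of the 5 was -0.97, and -1.34 to -0.96 with 1 array left out. The sums of the 5 were 21.8 to 22.2 in CD4-Vα14Tg and 32.0 to 33.0 in WT. The 3 that fell were Il23r, Il1r1 and Il17re. Il23r, Il1r1 and Ccr6, of which Ccr6 did not pass the test, reached the filter level in WT alone. Their place among the tested genes thus already implies a difference. The 4 tested T cell identity genes, Cd3d, Cd3e, Cd3g and Zap70, had differences of -0.31 to -0.09 and 0 passed, with sums of 43.8 against 44.5 to 44.7. Of 8 myeloid and dendritic markers, 7 were below the filter, among them Lyz2, Csf1r and Cd14, and Itgam rose by 0.67 (limma adjusted p = 0.0438, with a range of 0.0150 to 0.206 over 10 alternatives). The difference was 0.60 to 0.74 with 1 array left out, in fits that did not pass, and 0.67 with no filter, at a limma adjusted p of 0.0553. Among all genes tested, 0.610% were called higher. Over the 8 myeloid and dendritic markers the log2 differences ran from -0.42 (Itgax, below the filter) to 0.67, with a median of 0.03. The myeloid list summed to 35.6 to 35.9 in CD4-Vα14Tg and 35.0 to 36.1 in WT. Of 6 NKT2 and iNKT lineage genes, Il6ra rose by 0.80 (16.7%, against 0.610% of all genes, limma adjusted p = 0.0184) and the rest did not pass. Il13 (-0.57) and Il4 (-0.56) were lower with groups that did not overlap (33.3%, against 23.4% of all genes). Their limma adjusted p was 0.0624 and 0.234. Il6ra and Zbtb16 (0.23) were higher without overlap (33.3%, against 15.7% of all genes). Of the 6 differences, 4 were negative and 2 positive, with a median of -0.03. The 4 tested stromal and endothelial genes gave 0 calls by limma, with 1 higher (Pecam1, 0.48) at an unadjusted p under 0.05. The part of the subset markers in the superfamily differences was not tested. In RNA of a cell population, fewer cells of a subset and less RNA per cell cannot be told apart.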

How the data were processed

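Gene expression of mouse iNKT cells was measured on 4 Affymetrix arrays, 2 of CD4-Vα14Tg and 2 of WT, grouped by sample title. The deposited values are log2, 1 per probe set and array, made with RMA and Affymetrix Power Tools per the submitters' processing notes; tool versions, options and genome build were not given in the sources used here. Ranges of the values bear out a log2 scale. RMA sets the arrays to 1 distribution, which hides shifts of total RNA, and compresses differences near background.

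Of 41345 probe sets, 23521 carried 1 gene symbol in the platform annotation, 1814 several and 16010 none. They named 22180 genes (21994 matched RefSeq GRCm38.p6 by Entrez number), each by its probe set with the highest 4-array mean. After the filter, 13602 genes were tested across all named genes with limma 3.58.1 in R 4.3.3 (lmFit, eBayes, CD4-Vα14Tg minus WT, two-sided) and Benjamini-Hochberg adjustment at 0.05. Each ± is an SD of 2 arrays, and their number limits the precision. Array medians were 5.04 to 5.07, and arrays correlated at 0.993 to 0.994 within and 0.987 to 0.989 between genotypes across probe sets.

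Values per array are given for members with an unadjusted p under 0.05, with non-overlapping groups at least 0.5 apart or among the 5 highest signals, and for some others. Pathway genes were named at an unadjusted p under 0.05, and Tnf, Lta, Ltb, Fas, Fasl, Cd40lg and Cd27 whatever their test. The members and lists were chosen with earlier results of these data known. Alternatives were the replicate block, filters, normalizations, probe set means, trend and robust options and each array left out. The pipeline was tested on simulated data. Python 3.11.15, pandas 2.3.3, numpy 2.4.6 and matplotlib 3.10.9 made the tables and plots.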

Additional observations from a re-analysis of the deposited data

How the results depend on the processing

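The count of members called higher was 0 and that of members called lower 2. With the replicate block they were 2 (Tnfrsf13b and Tnfsf8) and 5 (Tnfrsf1b, Tnfsf10 and Tnfsf11 beside Tnfrsf18 and Tnfrsf21), and 674 genes were called in all against 265. The labels do not say that a number marks a shared batch, and same-numbered arrays deviated together with a correlation of 0.26 across genes. Members called lower numbered 1 with no filter, after a further quantile normalization and with the arrays set to 1 median, and 0 whichever array was left out, while all calls then numbered 166 to 221. With the 60th percentile filter, probe set means, and trend and robust options, both counts were as reported. Setting the arrays to 1 median also made 62.2% of all calls lower, against 68.7%, and the medians of the members and of all genes became -0.01 and 0.02. The median member difference ran from -0.15 to -0.01 over the alternatives.

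For 26 named genes (members, pathway genes and the myeloid marker Itgam), there were 284 alternative values. Of these, 248 kept their sign and their side of the threshold, 18 lost a call, 9 gained one and 9 changed sign. All 18 losses were in the genes called in the main fit, as the others had no call to lose. The call held in 4 of 11 alternatives for Tnfrsf18, 7 of 11 for Tnfrsf21, 9 of 11 for Fasl and 5 of 10 for Itgam. The sign changes were in genes near 0: Tnfrsf1a (-0.15 to 0.25 with 1 array left out), Cd27 (-0.27 to 0.21, 0.011 after quantile normalization and 0.00825 with 1 median), Cd40lg (-0.22 to 0.13) and Fas (-0.23 to 0.10). The cause was not tested. With 2 arrays per genotype, a difference of the size of Tnfrsf10b's (-0.18, with arrays that did not overlap) had an interval that includes 0.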
